A study of Mus musculus with 12 samples.

Results

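The comparison of 27pepL with pMCS asked what a targeted interleukin-27 (IL-27), given alone, was followed by in the RNA of prostate tumors. It covers 4 of the 12 libraries of the series, 2 from tumors of mice given the plasmid for 27pepL and 2 from mice given the empty plasmid pMCS. All tumors were TRAMP-C2-Ras, a mouse prostate adenocarcinoma line that carries an activated H-ras gene added by lentivirus, grown under the skin of male C57/BL6 mice aged 8 to 10 weeks and taken on day 26. Plasmids went into muscle by sonoporation (polymer, microbubbles and ultrasound) on day 4, away from the tumor. 27pepL is IL-27 with a short peptide at its C-terminus that binds the receptor subunit IL-6Rα. The other groups received IL-18 (recombinant IL-18 into the tumor on day 10), IL-27 (a plasmid for IL-27 with a peptide that targets nothing), 27→18 or 27pepL→18, the last pair being a plasmid followed by IL-18. Between 4 and 6 tumors were pooled for a library, and the sources do not say whether the 2 pools of a group hold different tumors, so p-values measure the spread between these libraries, which may be technical.

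Levels are CPM, counts scaled to a common library size by TMM, given for replicate 1 and then replicate 2 of a group. Depth was 49844915 and 54688919 counts in pMCS and 75031177 and 75062577 in 27pepL. Transcripts of the liver, such as Alb, Ttr and Apoa4, marked whole groups: pMCS, IL-18 and IL-27 held them in both replicates and the remaining 3 groups hardly at all. The 229 genes of this kind (a list of liver genes, plus any gene at 0.2 raw CPM or more in those 6 libraries and under 0.1 in the other 6) were left out of the description, and 20188 of 20417 tested genes remained. Genes taken as markers of tumor cells were detected in all 4 libraries, but bulk RNA does not show which cells they came from. Vimentin (Vim), the intermediate filament of mesenchymal cells, read 2273 and 2543 CPM in pMCS and 3249.6 and 2189.9 in 27pepL. Hras read 57.5 and 44.5 against 36.7 and 37.4 CPM, the epithelial keratin Krt8 29.4 and 76.8 against 24.8 and 50.7, and the epithelial adhesion gene Epcam 1.02 and 2.30 against 2.88 and 2.74. Groups overlapped for Vim and Krt8, and both Epcam values of 27pepL were above both of pMCS. The Hras values of 27pepL were the 2 lowest of 12 (log2 fold change -0.46, SE 0.32), by a narrow margin under IL-27 replicate 1 at 37.7 CPM.

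IL-27 is made of the subunits p28 (Il27) and EBI3 (Ebi3) and acts through a receptor of Il27ra and gp130 (Il6st), which passes the signal through JAK kinases. In T cells it favors T-bet (Tbx21) and interferon gamma, and it is known to raise the killing of target cells by cytotoxic lymphocytes. Those cells kill with granules that hold perforin, which opens the membrane of the target, and granzymes, a family of serine proteases. In the mouse, a row of granzyme genes lies side by side on chromosome 14, and granzymes C to G are known from strongly activated killer cells.

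Several genes that stood higher in 27pepL came from this row. Gzme, Gzmd, Gzmg and Gzmf, all proteases of cytotoxic granules, read 4.79 to 5.81 times the pMCS level, and both 27pepL libraries were the 2 highest of all 12 for each of them. The leading lower gene was Kctd17, an adaptor of cullin-3 ubiquitin ligases, at 17.5 and 26.3 CPM against 109 and 96.7. No difference passed an adjusted threshold in the main test, edgeR's quasi-likelihood test, but some passed by other tests. By DESeq2 the adjusted p was 4.12e-05 for Kctd17, 0.00116 for Gzme, 0.0212 for Gzmd, 0.0177 for Gzmf and 0.0203 for Gzmg. By edgeR's exact test it was 0.000329, 0.00865, 0.0398, 0.0405 and 0.0478 in the same order. Of 12 leading genes in each direction, DESeq2 passed 11 higher and 10 lower and the exact test 6 and 5. The leading genes had been picked for a small p in the same counts, so these passes are not independent evidence. By edgeR's quasi-likelihood test, 0 of the 20188 genes had a Benjamini-Hochberg adjusted p under 0.05 in either direction (without adjustment 222, or 1.10%, stood higher and 370, or 1.83%, lower, and after adjustment DESeq2 gave 22 higher and 61 lower and edgeR's exact test 8 and 22), and the smallest adjusted p was 0.0895, that of Kctd17. At the thresholds the study used (p under 0.05 before adjustment, with a change of more than 1 on the log2 scale), 150 genes (0.743%) were higher and 341 (1.69%) lower in 27pepL. From here on, a gene called higher or lower passed these thresholds, which do not correct for multiple testing. An unadjusted p under 0.05 was reached by 592 of 20188 genes (2.93%), fewer than a limit of 0.05 lets pass when nothing differs. Single libraries moved these counts: 421 were higher and 567 lower without pMCS replicate 2, 233 and 665 without 27pepL replicate 2, and 168 and 165 without pMCS replicate 1. The scatter of fold change against p shows the leading genes among all tested ones.

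**Figure D1:**
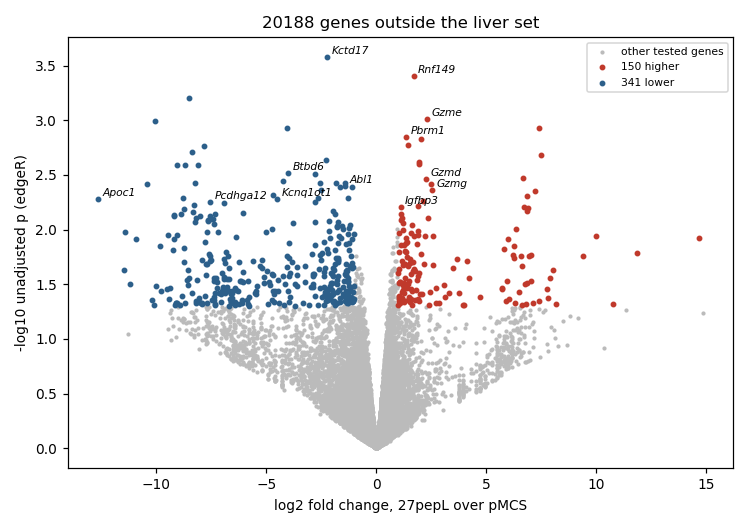
Log2 fold change of 27pepL over pMCS (x axis) against -log10 of the unadjusted edgeR p (y axis) for 20188 genes outside the liver set, 2 libraries a group. Red points are the 150 genes higher and blue points the 341 genes lower at the study's thresholds, and Kctd17 and Rnf149 stand at the top.

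The granzyme genes are shown with the 250 bases before their start because their values in 27pepL go together. RefSeq (GRCm38.p6) places them on the minus strand of chromosome 14 in the order Gzme, Gzmd, Gzmg, Gzmn, Gzmf, Gzmc, Gzmb. Capitals mark the letters TGTGGT, the core bound by RUNX factors, on either strand (ACCACA on the other).
Gzme, chr14:56120626-56120875, minus strand: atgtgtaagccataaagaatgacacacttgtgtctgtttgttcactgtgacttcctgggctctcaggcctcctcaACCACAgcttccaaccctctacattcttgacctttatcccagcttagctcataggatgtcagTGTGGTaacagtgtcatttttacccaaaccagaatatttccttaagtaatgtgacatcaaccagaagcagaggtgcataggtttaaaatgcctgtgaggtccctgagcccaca
Gzmd, chr14:56132594-56132843, minus strand: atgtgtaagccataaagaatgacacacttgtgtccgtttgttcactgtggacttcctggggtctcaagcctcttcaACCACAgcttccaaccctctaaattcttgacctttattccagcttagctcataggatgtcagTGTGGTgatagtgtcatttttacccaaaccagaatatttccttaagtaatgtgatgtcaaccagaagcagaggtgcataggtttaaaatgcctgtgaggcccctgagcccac
Gzmg, chr14:56159580-56159829, minus strand: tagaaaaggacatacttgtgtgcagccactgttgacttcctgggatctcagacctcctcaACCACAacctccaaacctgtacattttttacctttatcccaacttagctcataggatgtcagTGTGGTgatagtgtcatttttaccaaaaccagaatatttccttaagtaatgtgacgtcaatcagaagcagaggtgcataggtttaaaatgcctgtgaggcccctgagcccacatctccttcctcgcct
Gzmf, chr14:56211408-56211657, minus strand: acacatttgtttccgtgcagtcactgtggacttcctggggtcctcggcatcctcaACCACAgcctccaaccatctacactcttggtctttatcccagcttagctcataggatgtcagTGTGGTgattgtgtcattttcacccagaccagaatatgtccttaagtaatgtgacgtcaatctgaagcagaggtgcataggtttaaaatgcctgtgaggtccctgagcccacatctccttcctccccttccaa
Gzmc, chr14:56234658-56234907, minus strand: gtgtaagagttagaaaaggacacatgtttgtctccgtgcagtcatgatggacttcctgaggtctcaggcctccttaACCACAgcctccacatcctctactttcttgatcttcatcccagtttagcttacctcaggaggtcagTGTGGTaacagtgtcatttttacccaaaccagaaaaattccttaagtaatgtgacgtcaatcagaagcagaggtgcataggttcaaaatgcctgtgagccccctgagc
Each of these stretches holds 2 such matches at like places, ACCACA and then TGTGGT. That of Gzmb also holds 2, but both read TGTGGT and lie nearer the start of the gene. Of 32851 promoter stretches of this length, 4614 hold at least 1. The letters TTCNNNGAA, to which STAT factors can bind, were in 7.02% of all promoters and in none of the 6, and TGANTCA (AP-1) was in 6.75% of all and in that of Gzmb. A match describes the letters only. The promoters of Gzme and Gzmd were 95.2% identical and those of the other pairs among the 5 printed were 81.6% to 88.7% identical, while that of Gzmb was 47.3% to 52.6% identical to theirs. The GENCODE transcripts of Gzme and Gzmd were 93.4% identical, and those of Gzmd, Gzme, Gzmf and Gzmg 86.0% or more in every pair. Reads of these 4 genes can therefore be split between them by the counting, and their values are best read as those of one group.

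Gzme read 16.5 and 6.34 CPM in pMCS and 75.0 and 38.4 CPM in 27pepL, from 698 and 367 counts against 5186 and 3187. In the 8 libraries of the other treated groups it lay between 10.2 and 22.2 CPM, so the 27pepL libraries stood apart from all 10 others. The log2 fold change over pMCS was 2.31 (SE 0.49, adjusted p = 0.235 by edgeR). Gzmd read 48.2 and 14.7 CPM against 214 and 87.2, with the other 8 libraries at 23.7 to 72.2 CPM (log2 fold change 2.26, SE 0.58, adjusted p = 0.506). Gzmf read 35.0 and 7.60 CPM against 154 and 87.5, with the others at 15.6 to 48.6 (2.51, SE 0.66, adjusted p = 0.516). Gzmg read 34.4 and 9.94 CPM against 172 and 85.6, with the others at 12.6 to 64.8 (2.54, SE 0.68, adjusted p = 0.547). In all 4 genes replicate 1 was higher than replicate 2, in pMCS and in 27pepL alike, and the groups did not overlap. Each stayed past an unadjusted p of 0.05 in all 13 alternative analyses, including with any of the 4 libraries left out. The size of the change depended on them: the log2 fold change of Gzme was 1.76 to 3.16 with 1 of the 4 left out, that of Gzmd 1.48 to 3.36, that of Gzmf 1.83 to 3.99 and that of Gzmg 1.94 to 3.70. The lowest values came without 27pepL replicate 1 (Gzme, Gzmd) or pMCS replicate 2 (Gzmf, Gzmg) and the highest without pMCS replicate 1. Both 27pepL libraries were the highest of 12 in 1.13% of all genes tested.

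The neighbors on the same row were less uniform. Gzmc, next in the row (chosen after its values were seen), read 21.9 and 26.9 CPM against 173 and 52.9 and was also higher (log2 fold change 2.21, SE 0.71, adjusted p = 0.901), but IL-27 replicate 1, at 97.2 CPM, lay between the 27pepL libraries. Without 27pepL replicate 1 it was not called, with a log2 fold change of 1.12. Gzmb, granzyme B, the main granzyme of T and NK cells, read 3.07 and 5.46 CPM against 14.3 and 12.3 (log2 fold change 1.63, SE 0.88). Gzmn was at 0 in both pMCS libraries and at 0.434 and 0 CPM in 27pepL. Among proteases of myeloid granules, cathepsin G (Ctsg) read 0.284 and 0 CPM against 0.680 and 0.663, and Mcpt8 read 2.06 and 2.04 CPM against 1.92 and 0.784. Perforin (Prf1), on chromosome 10, read 2.98 and 4.34 CPM against 18.9 and 10.1 and was higher (log2 fold change 1.99, SE 0.83, adjusted p = 1.0). Prf1 was not called with a replicate block or without pMCS replicate 1, pMCS replicate 2 or 27pepL replicate 1. Among granzymes elsewhere in the genome, Gzma read 0.189 and 0.328 CPM against 1.56 and 0.482, Gzmk 0 and 0 against 0.116 and 0.543, and Gzmm, at 0.970 and 0.933 against 0.275 and 0.205 CPM, was lower (log2 fold change -1.98, SE 0.75), but not with any 1 of the 4 libraries left out.

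**Figure D2:**
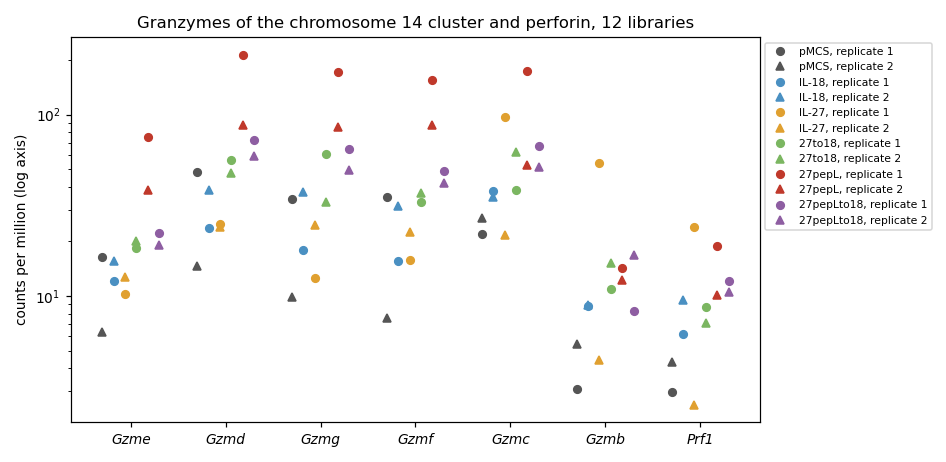
CPM on a log axis of 6 granzymes of chromosome 14 and perforin in each of 12 libraries, colored by group, with a circle for replicate 1 and a triangle for replicate 2 (27to18 and 27pepLto18 in the legend stand for 27→18 and 27pepL→18). Both 27pepL points lie above the other 10 for Gzme, Gzmd, Gzmg and Gzmf, while IL-27 replicate 1 is the highest for Gzmb and Prf1.

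The 4 defining markers of T and NK cells given here, chosen after their values were seen, were low, and none was called. The receptor subunit Cd3e, which defines T cells, read 0.591 and 0.536 CPM against 0.391 and 0.494, Cd8a of killer T cells 0.946 and 0.657 against 1.14 and 1.95, and the NK cell receptors Ncr1 and Klrb1c 0.781 and 0.691 against 0.868 and 0.338 and 0.284 and 0.709 against 0.448 and 0.543. These levels were near or under 1 CPM, and the groups did not overlap for Cd3e (lower in 27pepL) and Cd8a (higher) only, neither of them called. Of 22 T cell markers tested, 0 were higher and 0 lower, with a median log2 fold change of 0.01 (all genes -0.03), and their summed level was 39.6 and 49.2 CPM against 44.9 and 55.1. Of 19 NK and cytotoxic genes, 2 were higher (Prf1 and Cd244a, a receptor of NK cells) and 0 lower, against 0.743% and 1.69% of all genes. Their summed level was 47.8 and 55.2 CPM against 108.5 and 65.3, and 53.2 to 376 CPM in the other groups. The median log2 fold change of the list was 1.08, with 16 of 19 above 0 (84.2%, against 47.3% of all genes). Without 27pepL replicate 1 the median was 0.16 and 0 were called, and 0 were called without pMCS replicate 1 (median 0.76). Cd244a, not called without pMCS replicate 1 or either 27pepL library, read 1.61 and 2.66 CPM against 4.79 and 4.24, and it also exceeded both pMCS libraries in every treated library. IL-27 replicate 1 had the highest summed level of both lists by far, 283 CPM for T cells and 376 CPM for NK and cytotoxic cells, yet its Gzmd was 25.1 CPM and its Gzme 10.2. Fewer cells of a type and less RNA per cell cannot be told apart in bulk tumors.

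The other genes with the smallest p among those higher were mostly as high in the other treated groups. Rnf149, a membrane ubiquitin ligase, read 14.8 and 16.7 CPM in pMCS and 54.5 and 47.0 in 27pepL (log2 fold change 1.69, SE 0.32, adjusted p = 0.123), but the other 8 libraries lay at 32.5 to 57.3 CPM. Pbrm1, a subunit of the PBAF chromatin remodeler, read 23.9 and 16.1 against 43.8 and 59.1 CPM, with 29.3 to 51.2 in the others. The little studied Fam222b (4.71 and 3.70 against 22.3 and 11.8 CPM) and Cfap97, a gene of cilia (3.90 and 9.16 against 17.9 and 32.7 CPM), showed the same order. Lcp1, which codes for L-plastin, an actin bundler of white blood cells, read 21.5 and 29.7 against 122 and 65.3 CPM, and 71.7 to 217 CPM in the 8 others. In these 5 genes pMCS was low and every treated library higher. Over all genes, 56 of the 150 higher genes (37.3%) had all 10 treated libraries above both pMCS libraries, a pattern seen in 1.01% of genes tested, and 13 (8.67%) had both 27pepL libraries as the highest of 12.

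Other genes had their highest values in 27pepL, or close to it. Ing4, a chromatin reader of acetyltransferase complexes known as a tumor suppressor, read 10.4 and 11.9 CPM against 52.9 and 31.8 (log2 fold change 1.93, SE 0.47, adjusted p = 0.419), with 12.5 to 39.1 CPM in the others. Igfbp3, the main carrier of insulin-like growth factors in blood, read 233 and 222 CPM against 553 and 422 (1.10, SE 0.31, adjusted p = 0.668), with 131 to 467 CPM in the others. Pdgfrl, a gene like the PDGF receptor, read 6.95 and 9.26 CPM against 22.6 and 21.0, and 8.63 to 23.5 CPM in the others. The chemokine receptor Cxcr4 (17.5 and 15.1 against 36.6 and 34.0 CPM, log2 fold change 1.11, SE 0.33) and the integrin subunit Itgb3 (14.6 and 15.0 against 28.9 and 30.9 CPM, log2 fold change 1.01, SE 0.32), chosen, like the next 3 genes, after their values were seen, had close replicates in the 2 groups. Gadd45a, a stress gene of growth arrest, read 26.5 and 34.7 CPM against 83.7 and 62.4, and 55.8 CPM at most elsewhere, which makes its 27pepL libraries the 2 highest of 12 (log2 fold change 1.26, SE 0.52). The calcium channel subunit Cacna2d1 (17.7 and 12.3 against 34.9 and 33.2 CPM) and Hccs, which attaches heme to cytochrome c (30.1 and 13.7 against 55.5 and 45.5 CPM), also had their 2 highest values in 27pepL.

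**Figure D3:**
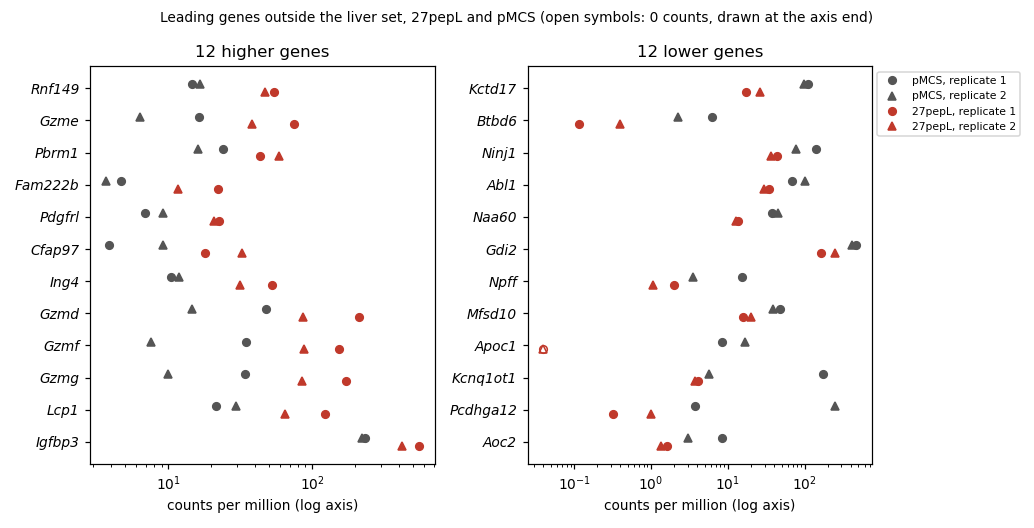
CPM on a log axis of the 12 higher and 12 lower genes with the smallest p, for pMCS (grey) and 27pepL (red), with circles for replicate 1 and triangles for replicate 2. The 2 groups do not overlap in any of the 24 genes, as the choice of genes required, and Kcnq1ot1 and Pcdhga12 each owe their difference mostly to 1 pMCS library.

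Kctd17, on chromosome 15, led the lower genes. It read 109 and 96.7 CPM in pMCS and 17.5 and 26.3 in 27pepL, and the next lowest of the 12 libraries was at 33.3 CPM (log2 fold change -2.23, SE 0.39, adjusted p = 0.0895). Btbd6, another adaptor of cullin-3 ligases, read 6.20 and 2.25 CPM against 0.116 and 0.398, the 2 lowest of 12 by a narrow margin over 27→18 replicate 2 at 0.423 (-4.02, SE 1.02, adjusted p = 0.467). Abl1, the tyrosine kinase of the ABL family, read 68.0 and 102 CPM against 34.2 and 29.1, with 50.01 CPM as the next lowest (-1.42, SE 0.38, adjusted p = 0.529). Kctd17, Btbd6 and Abl1 passed an unadjusted p of 0.05 in all 13 alternatives. The transporter gene Mfsd10 (48.4 and 38.9 against 15.5 and 20.1 CPM, -1.29, SE 0.36, adjusted p = 0.605) and Plec, whose product plectin links intermediate filaments (486 and 355 against 101 and 220.3 CPM, log2 fold change -1.39, SE 0.46), were also lowest in the 2 27pepL libraries. Plec was not called without pMCS replicate 1 or 27pepL replicate 1. That pattern held for 49 of the 341 lower genes (14.4%) and for 0.798% of all genes tested.

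Other lower genes were low in more groups or high in 1 pMCS library. Ninj1, a protein that ruptures the membrane of dying cells, read 141 and 75.8 CPM against 43.6 and 36.9 (-1.43, SE 0.37, adjusted p = 0.516), and 41.1 CPM in 27pepL→18 replicate 1. Naa60, an N-terminal acetyltransferase, read 37.7 and 45.1 against 13.6 and 12.6 CPM (-1.66, SE 0.44, adjusted p = 0.532), and 13.5 in IL-18 replicate 1. Gdi2, which recycles Rab GTPases, read 469.7 and 411 against 161 and 248 CPM (-1.11, SE 0.29, adjusted p = 0.532). It was as low in IL-18, IL-27 and 27→18, at 173 to 226 CPM, and high again in 27pepL→18 at 582 and 465. Npff, a neuropeptide gene, read 15.5 and 3.56 CPM against 2.01 and 1.05, and Aoc2, an amine oxidase, 8.42 and 2.99 against 1.61 and 1.34. The imprinted noncoding RNA Kcnq1ot1 read 173 and 5.72 CPM against 4.04 and 3.69, and the protocadherin Pcdhga12 3.78 and 249 against 0.318 and 1.001, so the difference came from replicate 1 in one and replicate 2 in the other. Pcdhga12 shares exons with the rest of its gene cluster, and its count is uncertain.

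Many lower genes were simply not detected in 27pepL. Of the 341, 133 (39.0%) had 0 counts in both libraries, against 3.01% of all genes, in spite of the deeper sequencing of 27pepL, and 141 were predicted genes. The genes named next were, apart from Apoc1, chosen after their values were seen. Thpo, thrombopoietin, was at 0.946 and 0.484 CPM against 0 and 0, at least 17.97-fold lower with 3 counts per library as the floor, and Kynu, kynureninase, at 0.449 and 0.432 against 0 and 0, at least 11.1-fold lower. Both are also made by liver, but they were detected in all 10 other libraries. The liver set did not take in every transcript of its kind: 37 of the 341 lower genes (10.9%) also had the 6 libraries of the groups with liver transcripts above the other 6, as did 0.317% of all genes. Among those or close to them were the apolipoprotein Apoc1 (8.33 and 16.7 CPM against 0 and 0, at least 315-fold lower), the liver MHC gene H2-Q10 (5.72 and 6.93 against 0.130 and 0.338) and angiotensinogen, Agt (2.34 and 2.83 against 0 and 0.301). The opposite pattern, all 6 below the other 6, was seen in 3 of the 150 higher genes. With the genes of both patterns set aside too, 147 were higher and 304 lower.

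The components of IL-27 signaling gave no call in either direction. Il27 read 0.260 and 0 CPM in pMCS and 0.0579 and 0.0965 in 27pepL, from 4 and 8 counts in the latter. Ebi3 read 0.544 and 1.56 CPM against 3.41 and 1.99 (log2 fold change 1.36, SE 0.99), and both 27pepL values exceeded both pMCS values. The receptor gene Il27ra read 2.18 and 4.41 CPM against 3.40 and 5.05, and its partner Il6st 77.1 and 88.4 against 42.7 and 105. Il6ra, the subunit that the added peptide binds, read 15.2 and 19.2 CPM against 19.0 and 13.9. Stat3, which carries the signal to the nucleus, read 58.1 and 72.2 CPM against 69.5 and 86.5. The targets Tbx21 (0.189 and 0.397 against 0.535 and 0.0965 CPM) and Ifng (0.189 and 0.0691 against 0.174 and 0.229 CPM) were near the limit of detection. Of 9 genes of IL-27 and its receptor, 14 of IL-6 and its receptor, 32 of the interferon gamma axis and 16 of JAK-STAT feedback, 0 were higher and 0 lower.

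**Figure D4:**
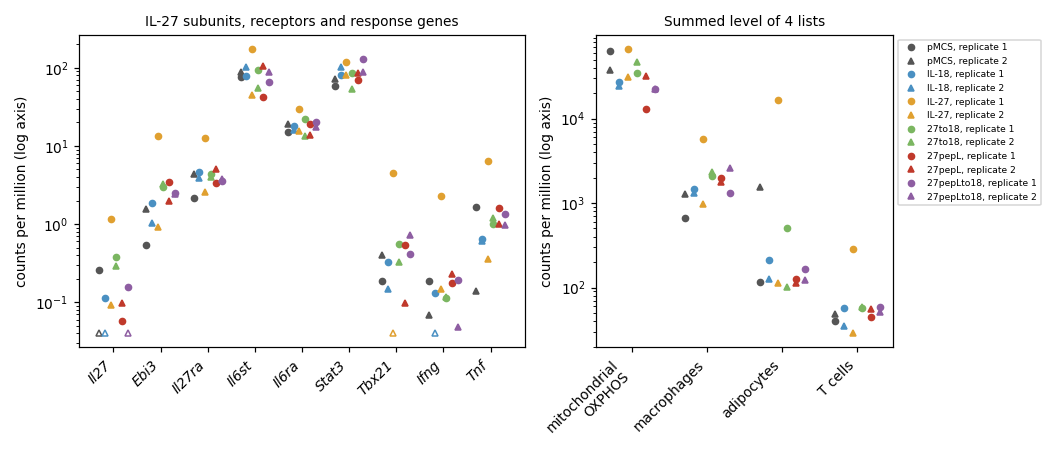
Left, CPM on a log axis of IL-27 subunits, receptors and response genes, and right, summed CPM of 4 gene lists, in each of 12 libraries (circle, replicate 1, and triangle, replicate 2, with open symbols at 0 counts). The 27pepL points lie among the others for Il27ra and Tnf, that of replicate 1 is the lowest of 12 for Il6st, and IL-27 replicate 1 is the highest of 12 for Il27, Ebi3, Tbx21, Ifng and Tnf and for macrophages, adipocytes and T cells.

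The study describes 27pepL tumors through regulators whose activity was predicted from the genes that changed. The RNA of a regulator's own gene is a different measure. Its values are given here and do not test those predictions. Tnf read 1.68 and 0.138 CPM in pMCS and 1.59 and 0.989 in 27pepL, Csf1 109.7 and 120.1 against 60.1 and 116, and Csf2 0.662 and 0.328 against 1.85 and 0.977 (log2 fold change 1.51, SE 0.74). Cd40 read 1.63 and 1.57 CPM against 1.65 and 1.10, Il15 2.58 and 2.68 against 3.27 and 2.09, and Rela, a subunit of NF-kB, 70.6 and 94.6 against 19.6 and 97.1. The groups overlapped for all of these but Csf2. Of 36 TNF and NF-kB genes tested, 0 were higher and 0 lower (median log2 fold change 0.04). Among regulators of lipid metabolism, Pparg read 3.33 and 9.02 CPM against 3.69 and 3.12, Nr1h3 (LXR alpha) 2.39 and 1.92 against 2.18 and 2.29, Nr1h2 (LXR beta) 33.6 and 28.0 against 18.9 and 24.5 (log2 fold change -0.50, SE 0.31), and the deacetylase Sirt3 6.46 and 5.63 against 2.82 and 4.91 (log2 fold change -0.64, SE 0.53). The 27pepL values of Nr1h2 and Sirt3 were below both pMCS values, and neither gene was called.

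Macrophage genes leaned higher, while other myeloid lists did not. Of 20 macrophage markers tested, 19 had a log2 fold change above 0, 13 had both 27pepL libraries above both pMCS libraries (65.0%, against 13.6% of all genes), and the median was 0.88, but of the 20 only Ms4a7, a membrane protein of tissue macrophages, was called higher (6.34 and 12.1 CPM against 47.0 and 22.9, log2 fold change 1.92, SE 0.82). Arg1, arginase 1 of alternatively activated macrophages, read 40.4 and 53.2 CPM against 149 and 124 (log2 fold change 1.54, SE 0.70), and the lipopolysaccharide receptor Cd14 20.8 and 24.7 against 44.9 and 28.6 (log2 fold change 0.69, SE 0.32). The summed level of the list was 674 and 1268 CPM in pMCS and 1958 and 1760 in 27pepL, within the range of the other 8 libraries (962 to 5795). The median was 0.54 without pMCS replicate 1 and 1.80 without pMCS replicate 2. The call of Ms4a7 was lost without pMCS replicate 1, pMCS replicate 2 or 27pepL replicate 1, and 4 markers were called without IL-27 replicate 1. Of 32 chemokines, 2 were higher and 1 lower, against 0.743% and 1.69% of all genes. Ccl12, which draws monocytes, read 11.4 and 11.9 CPM against 61.2 and 18.4, Ccl3, which draws macrophages and T cells, 1.58 and 1.28 against 5.51 and 2.94, and Ccl21a, the signal of lymphatic vessels and lymph nodes, 1.51 and 15.7 against 0 and 0.0965. The calls of Ccl12 and Ccl3 were lost without pMCS replicate 1, pMCS replicate 2 or 27pepL replicate 1, and the log2 fold change of Ccl12 was then 0.67 in the last case. Ccl21a has near-identical copies, so its count is uncertain. Apoe, which macrophages and other cells secrete and which LXR switches on, was the 1 higher gene of 17 LXR targets (103 and 143 CPM against 584 and 347, log2 fold change 1.92, SE 0.72, adjusted p = 1.0), and its call was lost without the same 3 libraries in turn. Of 16 MHC class I genes 14 had a log2 fold change above 0 and of 11 class II genes 10, but 0 were called. The shares above 0 were 87.5% and 90.9%, against 47.3% of all genes. Both 27pepL libraries exceeded both pMCS libraries in 9 class I genes (56.25%) and 1 class II gene (9.09%), against 13.6% of all genes. Without 27pepL replicate 1 the median went from 0.37 to 0.22 for class I and from 0.45 to -0.18 for class II. Dendritic cell, B cell, progenitor, fibroblast and endothelial markers gave 0 calls. The median of dendritic cell markers was 0.03 (9 of 18 above 0) and that of mast cell, basophil and eosinophil markers -0.35 (4 of 12 above 0). Of 10 neutrophil genes (median -0.75, 3 above 0) 1 was lower, Lcn2, which rested on pMCS replicate 2 (0.686 and 10.7 CPM against 1.01 and 0.531). Of 38 interferon-stimulated genes, Trim25, a ubiquitin ligase of RNA sensing, was lower (80.1 and 76.2 CPM against 2.04 and 31.8, log2 fold change -2.21, SE 0.94), with wide replicates, but not without pMCS replicate 1 or pMCS replicate 2.

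**Figure D5:**
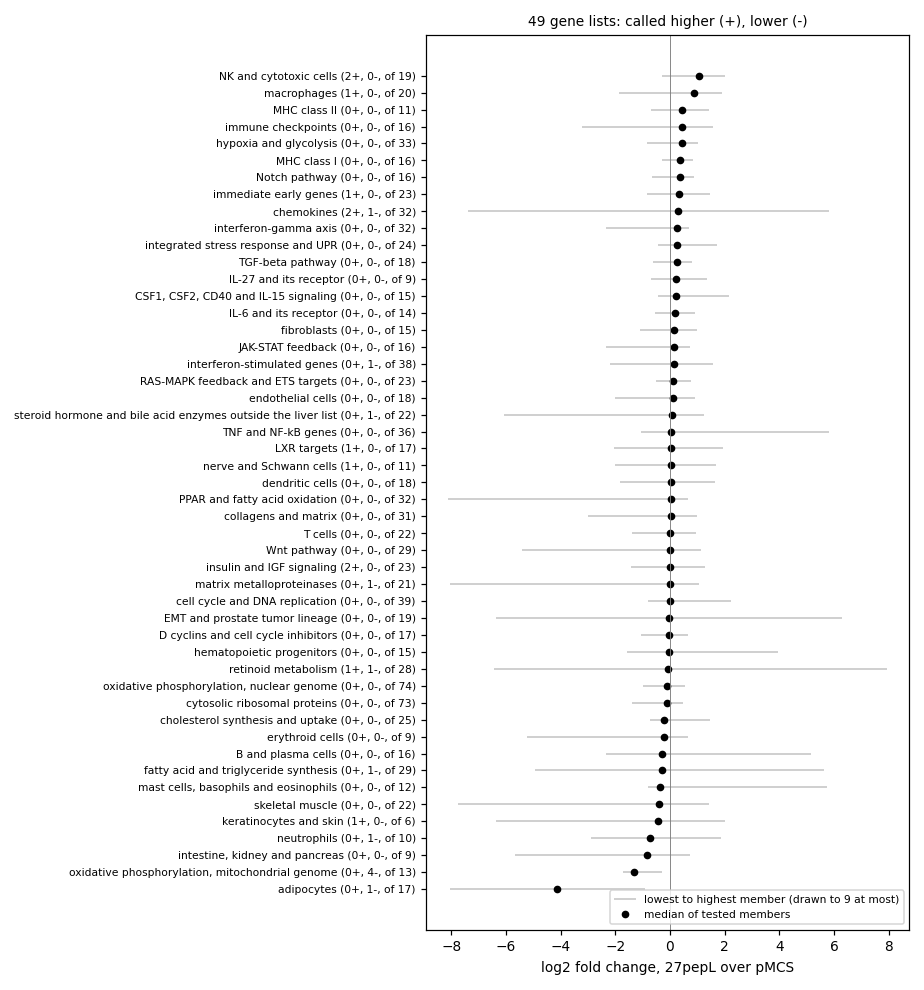
Median (black point) and range (grey line) of log2 fold changes of 27pepL over pMCS for the tested members of 49 gene lists, with the number called higher (+) and lower (-) of those tested beside each name. The NK and cytotoxic list (1.08) and macrophages (0.88) have the highest medians, and mitochondrially encoded subunits (-1.31) and adipocytes (-4.13) the lowest.

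Transcripts of the mitochondrial genome leaned lower in 27pepL than in pMCS. All 13 subunits of oxidative phosphorylation that it encodes had a log2 fold change under 0, with a median of -1.31 (all genes -0.03). Of the 13, 4 were called lower, against 1.69% of all genes. mt-Nd3 of complex I read 972 and 467 CPM in pMCS and 224 and 210.4 in 27pepL (-1.73, SE 0.61, adjusted p = 1.0), mt-Nd1 6274 and 3205 against 1164 and 2317 (log2 fold change -1.45, SE 0.54), and mt-Co1 of complex IV 17553 and 10524 against 3751 and 7687 (log2 fold change -1.30, SE 0.51). The share of all counts from the mitochondrial genome was 8.09% and 4.21% in pMCS and 1.37% and 3.64% in 27pepL. That of pMCS replicate 1 was the highest of 12 and that of 27pepL replicate 1 the lowest, and 0 of the 13 were called without either of them, with medians of -0.88 and -0.82, while 8 were called without pMCS replicate 2 and 9 without 27pepL replicate 2. The mitochondrial ribosomal RNA mt-Rnr2 stood at 20638 CPM in pMCS replicate 1 and 807 in replicate 2, against 862 and 515. The part of RNA quality in these values was not tested. Of 74 tested subunits that the nucleus encodes, 0 were called, with a median of -0.10, and Cox8a of complex IV read 500.2 and 368 CPM against 247 and 200.1 (log2 fold change -0.96, SE 0.37).

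Other metabolic lists gave few calls. Of 33 entries of hypoxia and glycolysis, 28 had a log2 fold change above 0 and 15 had both 27pepL libraries above both pMCS libraries (45.5%, against 13.6% of all genes), with a median of 0.43 and 0 calls. The oxygen sensor Hif1a read 103 and 145 CPM against 178 and 265 (log2 fold change 0.84, SE 0.40), and Ndrg1, which hypoxia induces, 169 and 215 against 474 and 280 (log2 fold change 0.98, SE 0.49). Of 25 genes of cholesterol synthesis and uptake, 0 were called and 18 were not above 0. Of 28 retinoid genes, Aldh1a3 was higher (3.52 and 7.71 CPM against 16.9 and 12.05) and Aldh1a1 lower (5.09 and 7.29 against 0.333 and 2.05), both enzymes that make retinoic acid. Of 23 insulin and IGF genes, Igfbp3 and the insulin receptor Insr (6.20 and 7.28 CPM against 19.6 and 13.3, log2 fold change 1.29, SE 0.44) were higher, against 0.743% of all genes. Aldh1a3, Aldh1a1 and Insr were not called without pMCS replicate 1 or 27pepL replicate 1, nor Aldh1a1 without pMCS replicate 2. Of 32 genes of PPAR and fatty acid oxidation, 0 were called, and the fatty acid synthase Fasn read 209.7 and 296 CPM against 83.1 and 195 (log2 fold change -0.86, SE 0.57). All 17 adipocyte markers had a log2 fold change under 0 and 1, Car3, was called lower, but pMCS replicate 2 alone was high: their summed level was 117 and 1546 CPM against 125 and 112, and adiponectin, Adipoq, read 0.449 and 59.4 against 1.23 and 0.434. Without that library the median of the list was 0.10, against -4.13 with it. Of 29 genes of fatty acid and triglyceride synthesis and 21 of matrix metalloproteinases and their inhibitors, 1 each was lower, Thrsp and Timp4 (0 and 1.02 CPM against 0 and 0). Thrsp (3.38 and 13.2 CPM against 0.550 and 0) and Car3 (7.33 and 239 against 3.17 and 1.06) had the same library as their highest of the 4.

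Cell cycle genes, D cyclins, RAS-MAPK feedback genes, Wnt, Notch and TGF-beta genes, collagens and ribosomal proteins gave 0 calls each. Of 23 immediate early genes, Egr2, a transcription factor that growth signals induce, was higher (3.29 and 2.54 CPM against 7.26 and 8.86, log2 fold change 1.47, SE 0.62), and Klf6 read 68.3 and 89.1 against 139 and 147 (log2 fold change 0.86, SE 0.32). Of 24 genes of the integrated stress response, Dnajb9 (21.6 and 19.9 against 41.7 and 30.2 CPM) and Mthfd2 (65.6 and 73.1 against 115 and 98.3 CPM) had an unadjusted p under 0.05 at changes under 2-fold. Gap43, of growing nerve fibers, was the 1 called of 11 nerve genes (14.5 and 26.8 CPM against 44.3 and 51.8, log2 fold change 1.22, SE 0.38), and Krt15 of basal epithelium the 1 called of 6 skin genes (0.449 and 1.05 against 1.63 and 4.52 CPM, log2 fold change 2.03, SE 0.70). Without pMCS replicate 1 Egr2, Gap43 and Krt15 were not called, and Egr2 was lost with any of the 4 libraries left out and Krt15 without 27pepL replicate 2.

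Other comparisons that use the same 27pepL libraries bear on the same genes and are given as values. Against the untargeted IL-27, 0 genes outside the liver set had an adjusted p under 0.05 (1009 before adjustment), and 152 (0.753%) were higher and 720 (3.57%) lower at the study's thresholds. IL-27 replicate 1 was rich in T cell, macrophage and adipocyte transcripts, with 16660 CPM summed over adipocyte markers. The balance turned on that library: without IL-27 replicate 1, 432 genes were higher and 183 lower, against 823 and 2023 without IL-27 replicate 2, 296 and 937 without 27pepL replicate 2 and 125 and 324 without 27pepL replicate 1. Against 27pepL→18, 0 passed adjustment (221 genes, 1.09%, before it), and 88 (0.436%) were higher and 112 (0.555%) lower. These became 569 and 143 without 27pepL→18 replicate 2 and 109 and 429 without 27pepL replicate 2. Against the mean of the other 5 groups, a comparison added after the data were seen, 0 passed (422 genes, 2.09%, before adjustment), and 110 (0.545%) were higher and 141 (0.698%) lower. Without 27pepL replicate 2 these were 206 and 711, and without 27pepL replicate 1 they were 60 and 149. Leaving out 1 library of another group gave 107 to 188 higher and 95 to 260 lower, with the most higher genes without IL-27 replicate 1 (188) or 27pepL→18 replicate 2 (186) and the most lower ones without IL-27 replicate 2 (260). With all libraries Gzme had a log2 fold change of 1.93 (SE 0.32), Gzmd 1.98 (SE 0.38), Gzmf 2.15 (SE 0.42) and Gzmg 2.04 (SE 0.43), and Kctd17 was at -1.76 (SE 0.34) and Abl1 at -1.43 (SE 0.32). These 6 were called, each at an adjusted p of 1.0. Rnf149, at 0.51 (SE 0.23), Pbrm1, at 0.48 (SE 0.23), and Lcp1, at 0.05 (SE 0.40), were not. Against 27pepL→18 alone, Gzme (log2 fold change 1.46, SE 0.48) and Kctd17 (-2.02, SE 0.39) were called, and Gzmd (1.196, SE 0.57), Gzmf (1.42, SE 0.63) and Gzmg (1.17, SE 0.65) were not. The growth factor pleiotrophin, Ptn, chosen after its values were seen, read 337 and 417 CPM in 27pepL, 207 and 249 in pMCS, 169 and 142 in IL-27 and 148 and 158 in 27pepL→18 (against the other 5 groups 0.94, SE 0.20).

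The same plasmid was also given before IL-18, and 27pepL→18 against IL-18 shares no library with 27pepL against pMCS. Outside the liver set, 0 genes passed adjustment there (311 genes, 1.54%, before it), and 133 (0.659%) were higher and 153 (0.758%) lower. Of the 150 genes higher in 27pepL, 86 (57.3%) were above 0 in that comparison, against 10092 of all 20188 genes, and 5 (3.33%) were called higher. Of the 341 lower genes, 191 (56.0%) were below 0, against 49.5% of all genes, and 31 (9.09%) were called lower, but 23 of those 31 follow the split of the liver set. The granzymes read 22.2 and 19.2 CPM (Gzme), 72.2 and 59.1 (Gzmd), 48.6 and 41.8 (Gzmf) and 64.8 and 49.7 (Gzmg) in 27pepL→18, and 12.1 and 15.7, 23.7 and 38.4, 15.6 and 31.5, and 17.9 and 37.5 in IL-18. Both 27pepL→18 libraries lay above both IL-18 libraries in each of the 4, at log2 fold changes of 0.57 (SE 0.47), 1.08 (SE 0.56), 0.94 (SE 0.63) and 1.05 (SE 0.65), and none was called. The share of all genes with this order was not counted, and the 4 are best read as one group. Both libraries of 27→18, with the untargeted plasmid, also lay above both IL-18 libraries for Gzme (18.5 and 20.1 CPM), Gzmd (56.2 and 47.5) and Gzmf (32.8 and 37.1). For Gzmg (60.5 and 32.9 CPM) 27→18 and IL-18 overlapped. Kctd17 was at 103 and 75.0 CPM in 27pepL→18 and 56.4 and 63.3 in IL-18, so it was not lower after 27pepL there. Gdi2 was higher there (582 and 465 against 214 and 226 CPM, log2 fold change 1.25, SE 0.29) and lower in 27pepL against pMCS.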

How the data were processed

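RNA of 12 pooled tumor libraries (6 groups of 2) was sequenced. Per the methods and the submitters' processing notes, the authors trimmed reads with Cutadapt, checked them with FastQC 0.11.3, aligned them with HISAT2, assembled transcripts with StringTie and tested with edgeR. The build behind the counts is not stated in the sources. The labels give total RNA and the methods a stranded poly(A) library. The deposited table holds raw counts for 55450 genes, and all 55450 identifiers matched GENCODE names. The authors' file held no other per-sample columns. How StringTie divides reads between alike or overlapping genes can change the counts of the granzymes and gene clusters.

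Counts were fitted with edgeR 4.0.16 (R 4.3.3), with TMM scaling, filterByExpr by group (20417 genes kept), 1 coefficient per group over all 12 libraries and the quasi-likelihood test (common dispersion 0.343, 6 residual degrees of freedom). Adjusted p-values are Benjamini-Hochberg over all tested genes. SE is the size of the log2 fold change divided by the square root of F. The 229 liver genes stayed in the fit. Genes named by rule were the 12 with the smallest p in each direction among called genes with non-overlapping groups, an average log2 CPM of at least 1 and a full name, up to 3 per list, and the cytokine, its receptors and regulators the study names. Further genes were named after their values were seen. Among them were Vim, Krt8, Epcam, Plec, mt-Rnr2, Cd3e, Cd8a, Ncr1, Klrb1c, Gzma, Gzmk, Gzmm, Gzmn and those so marked above. Members and lists were chosen with earlier results of these data known. The 49 lists are described by counts and medians, with no test of a list. A fold against a group at 0 used 3 counts per library as the floor. Promoters came from RefSeq (GRCm38.p6) and were searched on both strands. Alternatives were RLE scaling, no filter, a replicate block, liver genes removed, a length trend removed, the 4 libraries alone, the exact test, DESeq2 1.42.0 and leaving out each library. Scripts were tested on simulated data.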

Additional observations from a re-analysis of the deposited data

How the results depend on the processing

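Of 63 genes named for an unadjusted p under 0.05, all kept their direction and that p under RLE scaling, with the liver set removed and by DESeq2. Fewer did without a filter (56), with a replicate block (55), with a length trend removed (61), by the exact test (59), with the compared groups alone (52 of 61) and in the fit without IL-27 replicate 1 (62). Leaving out a compared library kept 31 (without pMCS replicate 1) to 47 (without 27pepL replicate 2), and without pMCS replicate 2 Lcn2 turned to 0.20 (-3.78 without pMCS replicate 1) and Timp4 to 0.0 (-9.08) on the log2 scale. The causes were not tested.

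Counts at an adjusted p under 0.05, 0 higher and 0 lower with edgeR's quasi-likelihood test, were 75 and 226 without a filter, 8 and 22 by the exact test and 22 and 61 by DESeq2, and 0 to 7 and 0 to 21 with 1 library left out. At the study's thresholds, 150 higher and 341 lower became 408 and 888 without a filter, 548 lower by DESeq2, and 109 to 421 and 165 to 665 with 1 library left out. Against 27pepL→18 the adjusted counts were 40 and 60 without a filter, 2 and 2 by the exact test, 12 and 7 by DESeq2, and 0 to 23 higher and 0 to 0 lower with 1 library left out. Against IL-27 they were 86 and 744, 11 and 42, 27 and 158, and 0 to 24 and 0 to 334. Against the mean of the other 5 groups they were 67 and 109 without a filter, 9 and 30 by DESeq2, and 0 to 1 and 0 to 6 with 1 library left out.

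Replicate numbers do not pair the libraries. Deviations of same-numbered libraries from their group means correlated at 0.21 between pMCS and 27pepL and at -0.28 to 0.34 over the 15 pairs of groups, and with the replicate block 134 genes were higher, 269 lower and 0 passed adjustment. With 2 libraries a group, pools whose tumors are not identified and a common dispersion of 0.343, moderate changes could not be told from replicate spread. The fit without IL-27 replicate 1, setting aside further genes that split like the liver set, and the comparison with the other 5 groups were chosen after seeing the data.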
